A study of Mus musculus with 7 samples.

Results

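The kinesin genes were described in mouse oocytes from a mitofusin knockout and from wild type. Kinesins are motor proteins that bind microtubules through a conserved motor domain and use ATP to walk along them, or to take their ends apart. Some carry vesicles, organelles and mitochondria, while others build and move the spindle, which in oocytes forms without centrosomes. The members were the protein-coding rows of the deposited table whose name is Kif or Kifc followed by a number. There were 41 of them among 16790 protein-coding rows and 26019 gene rows in all. Of these, 40 encode proteins with a kinesin motor domain. Kif1bp, which the name rule also takes, encodes a protein that binds kinesins and has no motor domain. A further 4 rows with matching names were pseudogenes or an antisense RNA and were left out.

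RNA was measured by Smart-Seq2, which amplifies full-length cDNA from polyadenylated RNA, in oocytes from secondary follicles of C57BL/6J mice. Each of the 7 libraries pooled 5 oocytes. The groups were wild type (WT, n = 4 libraries) and knockout (KO, n = 3 libraries). The labels name the deleted gene as Mfn2 in the design text and as Mfn1-/- in the genotype field, and give the age as 8 weeks in the protocol and as P1 in the age field. The design text speaks of 3 mice per group. How the deletion was made, and from which mouse each library came, is not stated in the labels, so a p-value here measures the spread between these samples only, which may be technical.

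The libraries held 6676076 to 8343915 reads in genes. Mfn2 had 15.0 to 35.3 normalised counts in WT and 4.55 to 7.66 in KO libraries (log2 change -1.94, SE 0.40, and limma gave an adjusted p of 0.00571). That call was lost without KO 2 and KO 3 together (adjusted p = 0.131). Mfn1 had 258 to 340.2 in WT and 308 to 347 in KO (adjusted p = 0.499). Of 15 oocyte markers all had a row, and their summed level was 207058 to 283406 in WT and 246047 to 411259 in KO libraries. Of 20 markers of granulosa cells, the somatic cells around the oocyte, 12 were higher in both KO 2 and KO 3 than in each of the other libraries. Their mean log2 level was 2.44 to 3.38 in WT and 3.32 to 4.46 in KO, although their summed level overlapped (1355 to 1595 in WT, 1243 to 1724 in KO), the largest part of it from Esr2. Inha, an inhibin subunit, had 11.9 to 66.7 in WT, 54.5 in KO 1, 395 in KO 2 and 338 in KO 3, and Gatm had 0 to 21.0, 14.5, 140.0 and 64.5. The defining markers Amh and Foxl2 were near 0 in WT (up to 0.953 and 1.08) and at 8.18 and 3.64 in KO 2 and 7.66 and 3.28 in KO 3. Of the 18 granulosa markers tested, 13 had a positive and 5 a negative log2 change, and Inha and Gatm were not called. Limma called Bex2 higher (adjusted p = 0.0357) and 2 lower (3.09% and 3.63% of all tested genes). The 2 were Cyp19a1 (179 ± 28.4 in WT and 78.2 ± 25.1 in KO; adjusted p = 0.00251) and Esr2 (1013 ± 106 and 722 ± 129; adjusted p = 0.0446). The summed level of theca and steroidogenic markers (7 of 8 with a row) was 38.3 to 64.8 in WT, 58.1 in KO 1, 235 in KO 2 and 364 in KO 3. Most of the sum in KO 2 and KO 3 came from Hsd3b1 (195 and 327, against 6.54 to 44.8 in WT). It was the only 1 of these markers higher in both than in each other library. Cyp11a1 was lower in each KO library (5.61 to 8.67 in WT and 1.82 to 5.47 in KO). The summed levels of endothelial markers (189.5 to 225 in WT, 167 to 227 in KO), immune markers (541 to 578 and 187 to 275), stromal markers (0 to 8.52 and 2.73 to 4.54) and red blood cell markers (0 to 2.13 and 0) were lower in KO or overlapped. The immune sum was mostly C1qb. The part of these cells in the kinesin results was not tested beyond the fits given beside them.

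Kinesin RNA made up 0.198% to 0.249% of the normalised counts of WT libraries and 0.241% to 0.263% of those of KO libraries. Levels of different genes are compared here as the normalised count per kilobase of annotated exon, because a longer RNA gives more fragments. Kif17, the homodimeric motor of the heterotrimeric-kinesin family known from dendrites, cilia and male germ cells, was the most abundant kinesin by this measure in each of the 7 libraries. Its level was 768 ± 73.6 per kilobase in WT (SD, n = 4) and 821 ± 153 in KO (SD, n = 3). Kif17 alone gave 25.4% to 26.8% of the summed kinesin level per kilobase in WT libraries and 20.8% to 27.9% in KO libraries.

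The kinesins next in level all serve the spindle, chromosomes or cell division. Kif22, which binds chromosome arms and pushes them outward, had 424 ± 69.5 per kilobase in WT and 359.6 ± 67.8 in KO. Kif4, a chromosome and spindle midzone motor, had 287 ± 22.7 and 356 ± 43.9. Kif23, a subunit of centralspindlin in cytokinesis, had 276 ± 32.4 and 298 ± 12.6. Kif2c, which depolymerises microtubule ends at centromeres, had 234 ± 21.4 and 282 ± 13.5. Kif20b and Kif20a, motors of the spindle midzone, followed with 162 ± 23.1 and 152 ± 26.4 in WT. These 6 genes, Kif17 and the transport gene Kif3a were the 8 leading kinesins in both groups, and the 8 highest genes of a library gave 81.7% to 84.7% of its summed kinesin level per kilobase. In WT, Kif17 and Kif22 each stood above every library of the gene after them. Kif4 overlapped with Kif23 and Kif23 with Kif2c, and Kif20b, Kif20a and Kif3a overlapped with each other. Between these groups, the lowest WT library of Kif2c (213 per kilobase) lay above the highest of Kif20b (186).

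At the other end, Kif5a, Kif6, Kif7 and Kif19a had a value above 0 in at most 2 of 7 libraries and never above 1.82 normalised counts. They did not pass the filter, which asked for 3 or more libraries with a value of 1 or above, and 37 of the 41 members were tested. Kif5a is the neuron-enriched conventional kinesin heavy chain, and Kif7 and Kif19a act at the tips of cilia. Kif1a, the axonal vesicle motor, passed the filter but reached only 0 to 5.47 normalised counts. Kif12 and Kif2b were not analysed here.

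**Figure D1:**
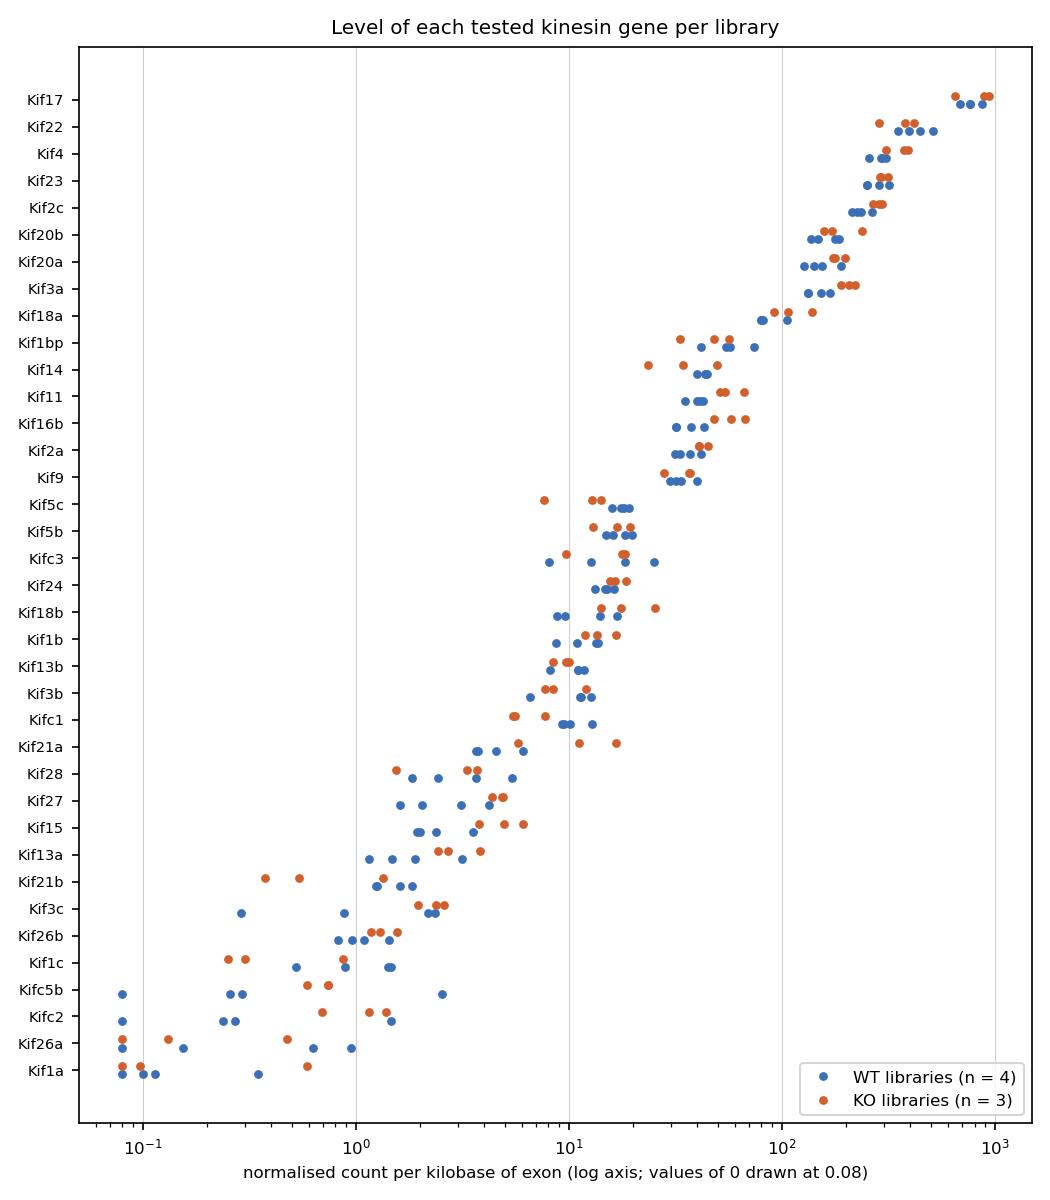
Level of the 37 tested kinesin genes in each library, as normalised count per kilobase of exon on a log axis (WT blue, n = 4; KO orange, n = 3; values of 0 are drawn at 0.08). Kif17 is highest in every library, and the WT and KO points of most genes overlap.

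Against this background, KO was compared with WT by limma on log2(normalised count + 1), fitted to 19227 genes, with a gene called at a Benjamini-Hochberg adjusted p under 0.05. Among the 37 tested kinesins 5 rose in KO and 0 fell, while 3.09% of all tested genes were called higher, 3.63% lower and 6.71% either way. The 5 were Kif16b and Kif3a of cargo transport, Kif11 and Kif15 of the spindle, and Kif21a, which regulates microtubule growth. At an unadjusted p under 0.05, 10 kinesins were higher and 3 lower (10.6% and 11.2% of all genes), and edgeR on the recovered reads called the same 5 higher and 0 lower (3.58% and 3.36% of all genes). The groups did not overlap for 6 kinesins with all KO libraries above WT and 2 with all KO libraries below it, against 9.37% and 9.83% of all tested genes. The median log2 fold change of the tested kinesins was 0.21 and that of all tested genes -0.01, and 62.2% of these kinesins against 49.2% of all tested genes had a positive value.

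The number of kinesins called depended on single libraries. For the fits that follow no share of all tested genes is given, so the losses cannot be called particular to kinesins. In the other lists of microtubule genes below, calls were also lost in such fits. Without 1 library at a time the number of kinesins called higher was 0 without WT 3 or KO 2, 1 without WT 1 or KO 3, 2 without WT 4, 3 without WT 2 and 5 without KO 1. It was 0 without KO 2 and KO 3 together, and 0 when each library's granulosa marker mean entered the fit as a covariate (adjusted p from 0.768 to 0.875). With that covariate the log2 change of Kif11 went from 0.52 to 0.43, that of Kif3a from 0.49 to 0.44 and that of Kif15 from 0.99 to 0.77. The log2 change of Kif16b went from 0.67 to 0.34 and that of Kif21a from 1.18 to 0.54. Mfn2, the targeted gene, lost its call with this covariate too (log2 change -1.59, limma adjusted p = 0.653). The part of granulosa RNA in these kinesin values was not tested further. KO 2 and KO 3, the libraries with the highest granulosa marker mean, also held the highest values of each of the 5 genes. KO 1 held the lowest value of each among the KO libraries. These genes were selected as higher in KO, and how many of all called genes share this order was not counted. The same 2 libraries had the highest mean log2 level of the oocyte markers (13.79 and 13.37, against 12.90 to 13.30 in WT and 13.24 in KO 1), and 6 of these 15 markers were higher in both than in each other library. Among them Ddx4, a germ cell RNA helicase, rose, from 594 to 988 in WT to 1305, 2337 and 2069.8 in KO 1 to 3 (limma adjusted p = 0.00287). The part of these differences in the kinesin results was not tested. In bulk libraries, fewer cells of a type and less RNA per cell cannot be told apart.

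**Figure D2:**
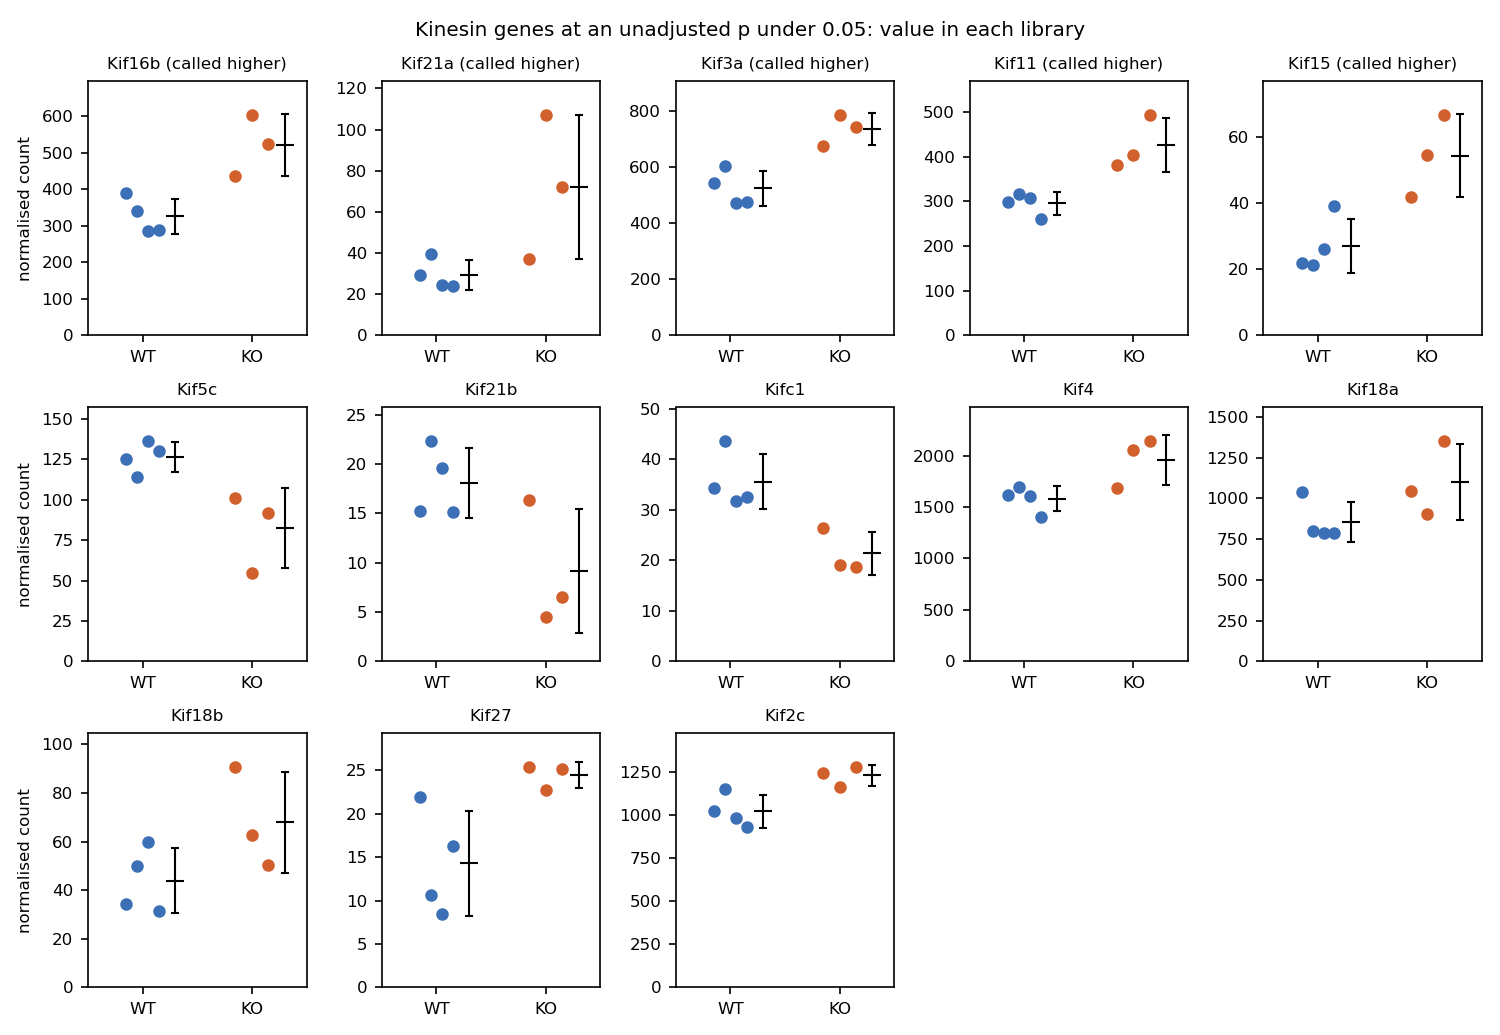
Normalised count of each of the 13 kinesin genes at an unadjusted p under 0.05, by library (WT blue, n = 4; KO orange, n = 3), with the group mean ± SD in black; all axes start at 0. The first 5 panels are the called genes, of which only Kif21a has a KO library (37.2) below the highest WT library (39.4).

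Among cargo motors, Kif16b, which carries early endosomes and receptors in them towards microtubule plus ends, had the smallest p (ENSMUSG00000038844.10; GRCm38 chromosome 2, 142617474 to 142901531, minus strand). Its normalised counts were 389, 339.8, 287 and 289 in WT 1 to 4 and 435, 605 and 523 in KO 1 to 3. Each KO library lay above each WT library. The means were 326 ± 48.4 (SD, n = 4) and 521 ± 84.7 (SD, n = 3), a log2 change of 0.67 with an SE of 0.16 (adjusted p = 0.0168 in limma). It was not called when WT 3 (adjusted p = 0.0633) or KO 2 (0.0857) was left out, and without KO 2 and KO 3 the log2 fold change was 0.43 (adjusted p = 0.498).

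Kif3a encodes a subunit of the heterotrimeric kinesin that moves cargo along cilia and in the cytoplasm, and pairs with the product of Kif3b or Kif3c (ENSMUSG00000018395.19; chromosome 11, 53567379 to 53601967, plus strand). It had 544, 604, 472 and 475 normalised counts in WT and 675, 787 and 743 in KO libraries, again without overlap (log2 change 0.49, SE 0.14, and limma gave an adjusted p of 0.0416). Only leaving out WT 2 or KO 1 kept the call, and adjusted p otherwise reached 0.136. Its partner gene Kif3b had 63.9, 71.4, 63.6 and 36.8 in WT and 47.2, 43.6 and 67.8 in KO, with overlapping groups (log2 change -0.14, 95% interval -0.70 to 0.43). Kif3c had 2.13 to 17.3 in WT and 14.5 to 19.1 in KO (0.95, interval -0.16 to 2.06; adjusted p = 0.312). An overlapping gene holds 38.9% of the 75-base stretches of Kif3c, so its count is uncertain.

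Kifap3, whose product joins the KIF3 motor pair to its cargo and which is no member by name, rose as well. It had 21.9, 24.5, 26.2 and 20.6 in WT and 44.5, 57.3 and 54.7 in KO libraries, and the lowest KO value lay above the highest WT value (log2 change 1.13, SE 0.28, and limma gave an adjusted p of 0.0196). The call was lost without KO 2 (adjusted p = 0.0814) or KO 3 (0.0591). Per kilobase of exon, Kif3a RNA exceeded the sum of Kif3b and Kif3c 10.8 to 14.9 times in WT libraries and 14.4 to 22.6 times in KO libraries, with overlap. The same ratio of Kif3a to Kifap3 was 20.2 to 27.8 in WT and 15.2 to 17.0 in KO, without overlap.

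**Figure D3:**
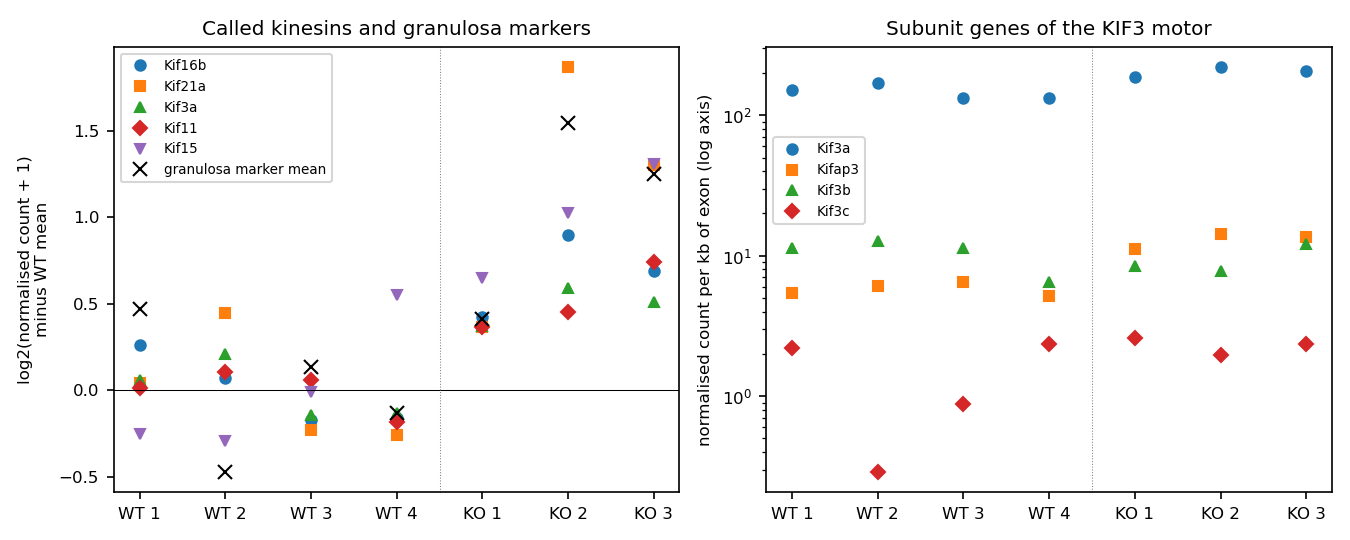
Left, log2(normalised count + 1) of the 5 called kinesins and the mean over 20 granulosa markers, each minus its WT mean, by library. Right, normalised count per kilobase of exon (log axis) of Kif3a, Kifap3, Kif3b and Kif3c by library; all 3 KO libraries lie above the WT libraries for Kif3a and Kifap3, and KO 2 and KO 3 are highest for the granulosa mean.

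The heavy chains of conventional kinesin, which carry mitochondria through the adaptors Trak1 and Trak2 and the outer membrane GTPases Rhot1 and Rhot2, were not called. Kif5b, the ubiquitous heavy chain, had 128, 119, 147 and 158 in WT and 104, 154 and 133 in KO (log2 change -0.09, 95% interval -0.50 to 0.32; limma adjusted p = 0.834). Kif5c had 125, 114, 136 and 130.0 in WT and 101, 54.5 and 91.9 in KO libraries. Each KO value of Kif5c lay below each WT value, yet the gene did not pass (-0.65, interval -1.12 to -0.19; adjusted p = 0.0812). It was called lower without KO 1 (adjusted p = 0.0372). By level per kilobase Kif5c made up 47.9% to 52.2% of the conventional heavy chains in WT libraries, and 51.9%, 28.1% and 43.5% in KO 1, KO 2 and KO 3.

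The adaptor genes were not called either. Trak1 had 153 to 207 in WT and 135 to 195 in KO (log2 change -0.15, 95% interval -0.54 to 0.24), and Trak2 22.7 to 47.7 and 31.8 to 41.8 (0.31, interval -0.34 to 0.96). Rhot1 had 599.6 to 725 in WT and 487 to 686 in KO (-0.15, interval -0.45 to 0.16). Rhot2 had 72.5 to 128 and 78.8 to 109 (0.02, interval -0.48 to 0.51), and other genes hold 23.0% of its 75-base stretches. The 4 kinesin light chain genes Klc1 to Klc4 were at most 120.4 in any library and not called, with adjusted p of 0.777 to 0.982.

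Of the other cargo motors none was called. Kif17 had 3484, 3961, 3498 and 3140.0 in WT and 4055, 4272 and 2965 in KO, so that KO held both the highest and the lowest library (log2 change 0.08, 95% interval -0.20 to 0.36). Kif1b, which carries mitochondria and synaptic vesicle precursors, had 153 to 242 in WT and 210.0 to 291 in KO (0.27, interval -0.12 to 0.66). Kif13b had 106 to 153 and 109 to 130.2 (-0.16, interval -0.56 to 0.25). Kif13a, an endosome motor, was at 9.35 to 25.6 in WT and 19.7 to 30.9 in KO. Kif1c had 3.81 to 10.7 and 1.82 to 6.36, and Kif28 6.54 to 19.2 and 5.45 to 13.1, and their 95% log2 intervals were wide (-2.17 to 0.09 and -1.14 to 0.78). In all, 2 of the 13 tested cargo motors were called higher and 0 lower (3.09% and 3.63% of all tested genes). Their median log2 fold change was 0.08, against -0.01 over all tested genes.

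Spindle and cytokinesis motors included 2 of 10 that rose and 0 that fell (3.09% and 3.63% of all tested genes). Their median log2 fold change was 0.29 and 8 of 10 were positive, against -0.01 and 49.2% over all tested genes. Kif11, also called Eg5, slides antiparallel microtubules apart and is needed for a bipolar spindle (ENSMUSG00000012443.4; chromosome 19, 37376403 to 37421859, plus strand). It had 298, 317, 308 and 260.0 normalised counts in WT and 381, 404 and 494 in the KO libraries. All KO values lay above all WT values (log2 change 0.52, SE 0.16, and limma gave an adjusted p of 0.0478). Every fit that left out 1 library other than KO 1 lost this call, with adjusted p of up to 0.150.

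Kif15, which acts beside Kif11 in keeping spindle poles apart, was about as close to the threshold (ENSMUSG00000036768.6; chromosome 9, 122951046 to 123018733, plus strand). It had 21.9, 21.3, 26.2 and 39.0 in WT and 41.8, 54.5 and 66.7 in KO, without overlap, although WT 4 and KO 1 differed by few reads. Its log2 change was 0.99 with an SE of 0.30 (adjusted p = 0.0481 in limma), the means being 27.1 ± 8.22 and 54.4 ± 12.5. Only leaving out WT 4 or KO 1 kept the call (adjusted p elsewhere up to 0.170), which also failed with a pseudocount of 0.5 in place of 1 (0.0508). Per kilobase Kif15 was far below Kif11 in both groups, at 2.46 ± 0.746 against 39.6 ± 3.37 in WT and 4.93 ± 1.13 against 57.1 ± 8.07 in KO.

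Of the other spindle motors, 3 were higher at an unadjusted p under 0.05 without passing over all genes. Kif4 had 1619.7, 1698, 1609 and 1405 in WT and 1686, 2050.1 and 2145 in KO, with KO 1 inside the WT range (log2 change 0.30; limma adjusted p = 0.166). Kif18a, which dampens chromosome movement at the metaphase plate, had 1038, 802, 786 and 786 in WT and 1043, 903 and 1354 in KO, and only WT 1 reached the KO range (0.36; adjusted p = 0.174). Kif18b had 34.3, 50.1, 59.8 and 31.4 in WT and 90.8, 62.7 and 50.3 in KO, here with KO 1 highest (0.63; adjusted p = 0.200). Kif4 shares 13.8% of its 75-base stretches with the overlapping gene Pdzd11.

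Kif23 had 1976 to 2514 in WT and 2287 to 2469 in KO (log2 change 0.12, 95% interval -0.14 to 0.38). Kif20a had 548 to 816 and 755 to 853 (0.27, interval -0.04 to 0.58), and Cdc23 holds 23.3% of its 75-base stretches. Kif20b had 955 to 1292 and 1100.2 to 1642 (0.21, interval -0.11 to 0.53). The 2 spindle motors with lower means in KO were Kif22 and Kif14. Kif22 had 1928, 2504, 2172 and 1710.3 in WT and 2048, 1844 and 1398 in KO, of which only KO 3 lay below WT (-0.24, interval -0.55 to 0.07). Kif14, which holds the midbody together in cytokinesis, was tight in WT at 455, 449, 459.9 and 412 and spread in KO at 353, 244 and 512 (-0.33; limma adjusted p = 0.342). Without KO 3 it was called lower (adjusted p = 0.0445).

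The motors that depolymerise microtubules were 3 of 3 not called, where 3.09% of all tested genes were called higher and 3.63% lower. Kif2c had 1022, 1150.3, 983 and 931 in WT and 1244, 1166 and 1282 in KO libraries, without overlap but with a small difference (log2 change 0.27, 95% interval 0.004 to 0.54; limma adjusted p = 0.221). Kif2a had 201 to 267 and 259 to 286 (0.24, interval -0.10 to 0.58), and Kif24, a centriole protein, 106 to 129.9 and 125 to 149 (0.18, interval -0.21 to 0.57).

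Minus-end directed kinesins gave 0 of 4 calls, where 3.09% of all tested genes were called higher and 3.63% lower. Kifc1, which focuses spindle poles and bundles microtubules, had 34.3, 43.7, 31.8 and 32.5 in WT and 26.3, 19.1 and 18.6 in KO, each KO library below each WT library (log2 change -0.72, 95% interval -1.34 to -0.09; limma adjusted p = 0.160). Kifc1 shares 26.1% of its 75-base stretches with other genes, among them its paralog Kifc5b and a pseudogene, so reads may be split between them. Kifc5b had 0 to 9.35 in WT and 2.19 to 2.73 in KO. Kifc3, the highest of the 4 per kilobase, had 42.9, 96.9, 133 and 67.2 in WT and 97.2, 93.6 and 51.4 in KO, so the WT range covered the KO range. Kifc2 was at 5.72 or less in each library.

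Of the 4 members grouped under microtubule regulation 1 rose and 0 fell (3.09% and 3.63% of all tested genes). Kif21a, which pauses microtubule growth at the cell cortex, had 29.6, 39.4, 24.3 and 23.8 in WT and 37.2, 107 and 72.2 in KO (ENSMUSG00000022629.17; chromosome 15, 90933276 to 91049948, minus strand). KO 1 lay inside the WT range, and KO 2 and KO 3, the libraries with the highest mean log2 level of granulosa markers, lay above it. The log2 change was 1.18 with an SE of 0.32 (adjusted p = 0.0326 in limma), the largest among the 5 called kinesins. It was 0.37 (adjusted p = 0.817) without KO 2 and KO 3, and of the fits without 1 library only those without WT 2 or KO 1 kept the call (adjusted p elsewhere up to 0.194). Its paralog Kif21b had 15.3, 22.4, 19.6 and 15.2 in WT and 16.4, 4.55 and 6.56 in KO, with KO 2 and KO 3 below WT (-1.07, 95% interval -1.96 to -0.17; adjusted p = 0.144). Kif21b was called lower without KO 1 (adjusted p = 0.0347). Kif26b had 12.2 to 21.0 and 17.3 to 23.0, and Kif26a, which has lost motor activity, 0 to 6.54 and 0 to 3.28.

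Of the ciliary members, Kif9 had 171, 145, 136 and 128 in WT and 119.9, 157 and 159 in KO, overlapping, with a log2 fold change of 0.00 (95% interval -0.39 to 0.39). Kif27 had 21.9, 10.7, 8.41 and 16.2 in WT and 25.4, 22.7 and 25.2 in KO, with all KO values above WT (0.82, interval 0.03 to 1.60; limma adjusted p = 0.207). The kinesin-binding Kif1bp, which controls how several of these motors attach to microtubules, had 279, 362, 265 and 205 in WT and 274, 234 and 163 in KO, with only KO 3 below WT (-0.32, interval -0.74 to 0.11).

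**Figure D4:**
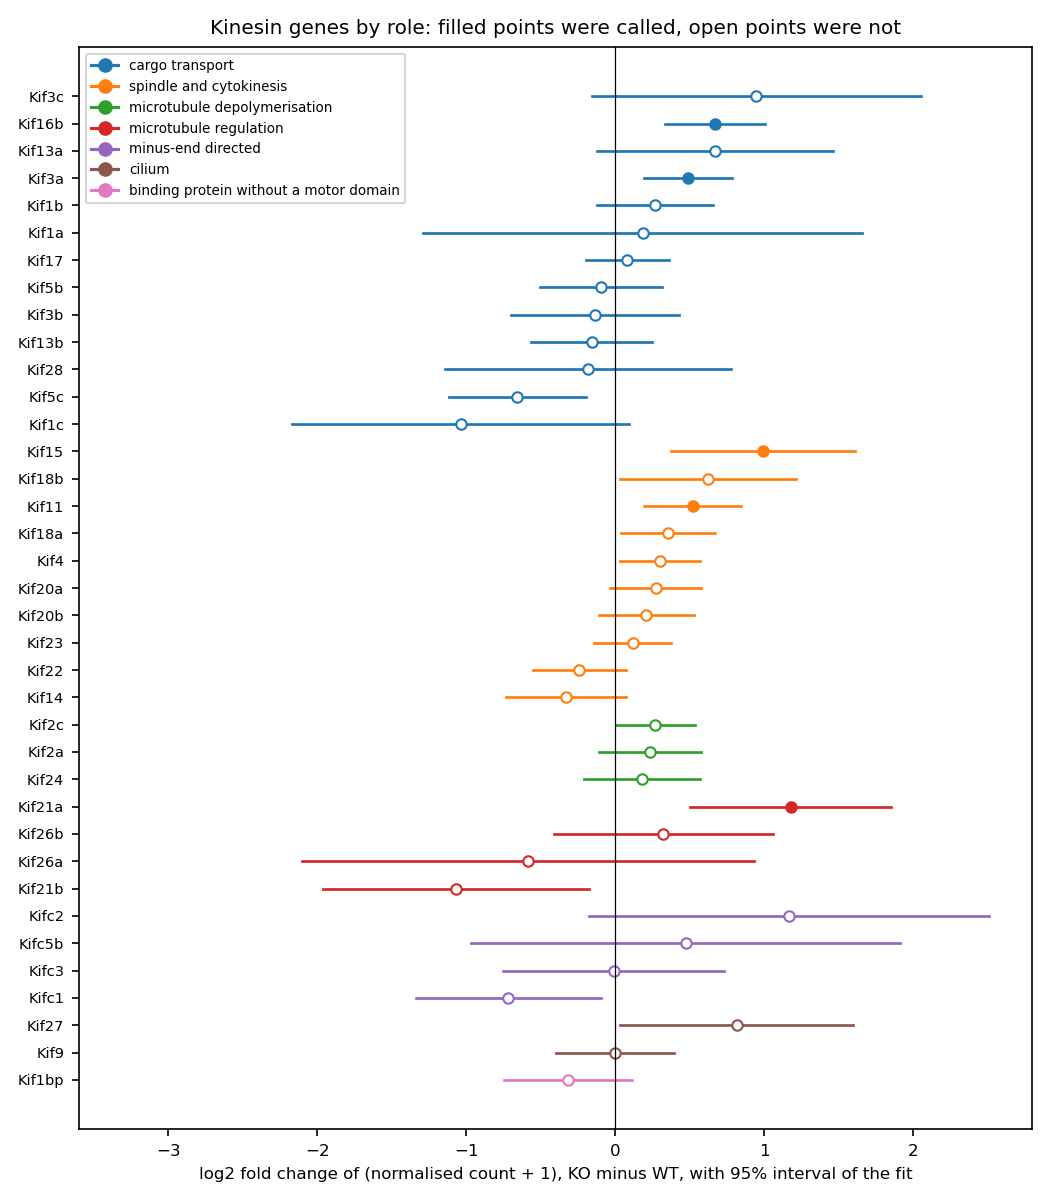
Log2 fold change, KO minus WT, of the 37 tested kinesin genes with the 95% interval of the limma fit, coloured by role; filled points were called and open points were not. The 5 called genes lie between 0.49 (Kif3a) and 1.18 (Kif21a), and no point on the left of 0 is filled.

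The upstream sequences of the 5 called genes are shown because these genes were higher in the same libraries. RefSeq promoter windows (GRCm38.p6) were found for 32 of the 41 members. From the 250 bases before the start site nearest to the deposited gene start, the longest stretch outside any annotated exon is given, 5′ to 3′ on the strand of the gene. Capitals mark the CCAAT box (CCAAT or ATTGG), bound by NF-Y, and the cell cycle homology motif (TTTGAA or TTCAAA) of many mitotic genes.
Kif16b (chr2:142901532-142901714, strand -): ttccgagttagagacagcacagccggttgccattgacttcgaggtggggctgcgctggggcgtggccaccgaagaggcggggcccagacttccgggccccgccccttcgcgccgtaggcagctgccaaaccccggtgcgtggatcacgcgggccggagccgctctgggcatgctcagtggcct
Kif3a (chr11:53567314-53567368, strand +): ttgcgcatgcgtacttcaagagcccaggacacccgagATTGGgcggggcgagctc
Kif11 (chr19:37376132-37376381, strand +): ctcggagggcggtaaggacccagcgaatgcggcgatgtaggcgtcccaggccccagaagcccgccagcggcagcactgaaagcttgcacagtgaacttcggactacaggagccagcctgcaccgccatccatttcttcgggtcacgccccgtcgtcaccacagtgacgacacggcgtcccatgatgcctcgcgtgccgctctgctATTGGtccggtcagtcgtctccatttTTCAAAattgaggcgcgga
Kif15 (chr9:122951001-122951045, strand +): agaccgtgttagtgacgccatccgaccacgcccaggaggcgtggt
Kif21a (chr15:91049952-91050201, strand -): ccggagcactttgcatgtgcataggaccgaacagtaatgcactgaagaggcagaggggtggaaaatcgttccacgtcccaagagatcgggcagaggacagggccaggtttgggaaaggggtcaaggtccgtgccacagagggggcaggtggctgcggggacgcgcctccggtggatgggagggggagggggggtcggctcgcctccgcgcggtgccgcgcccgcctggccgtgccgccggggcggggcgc
Kif11 holds both motifs close to its start site, the CCAAT box beginning at base -45 and TTTGAA at base -19, each on the reverse strand. Kif3a holds a CCAAT box at base -18. In the whole 250-base windows, Kif15 also holds TTTGAA, outside the stretch shown.

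Across the 32 members with a window, 16 (50.0%) held CCAAT and 7 (21.9%) TTTGAA on either strand. The shares of all 32851 windows were 33.8% and 16.0%. The member shares count 1 window per gene and the others count every window, so they are not of the same kind. By role, CCAAT was found in 6 of 9 spindle motors and 3 of 10 cargo motors, and TTTGAA in 4 of 9 and 0 of 10. The TTTGAA carriers among spindle motors were Kif11, Kif14, Kif15 and Kif22, of which 2 were called higher and 2 had lower means in KO. The window used for Kif14 lies at a RefSeq start 1505 bases from the deposited gene start, and those of Kif2c and Kif27, which also hold TTTGAA, 3868 and 4176 bases from it. For Kif17, which holds neither motif, the distance is 11816 bases. These windows may not be the start used in oocytes. GCGGGAA, an E2F-type sequence, was in 1 member (3.12%, against 3.82% of all windows), and TAATTG, of the homeobox type, in 2 (6.25% against 7.17%). CCAAT read as ATTGG can overlap TAATTG, and a match is a run of letters and not a measured site.

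Other genes of microtubule transport were read from the same fit. Of 30 tested kinesin light chains, accessory subunits and adaptors 3 rose and 0 fell (3.09% and 3.63% of all tested genes), with 4 higher and 2 lower at an unadjusted p under 0.05 and a median log2 fold change of -0.02. Besides Kifap3 these were Map7d1 (97.3 ± 14.9 in WT and 168 ± 39.6 in KO; limma adjusted p = 0.0285) and Map7d2 (31.4 ± 6.81 and 66.3 ± 21.4; adjusted p = 0.0322). Both belong to the MAP7 family, microtubule proteins that recruit conventional kinesin. Neither was called when WT 1, WT 2, WT 3 or KO 2 was left out, where adjusted p reached 0.156 for Map7d1 and 0.182 for Map7d2. Cenpe, the kinetochore kinesin whose name the rule does not take, had 1959 to 2263 in WT and 1766 to 2227 in KO (log2 change -0.11; adjusted p = 0.668).

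Cytoplasmic dynein, the motor that runs towards microtubule minus ends, and its cofactors had 3 of 33 tested genes that rose and 1 that fell, against 3.09% and 3.63% of all tested genes (median 0.04). Dync1i1, the tissue-restricted dynein intermediate chain, had 44.8, 61.8, 49.5 and 42.2 normalised counts in WT and 12.7, 5.45 and 10.9 in KO libraries. All 3 KO values lay far below WT (log2 change -2.30, SE 0.34, and limma gave an adjusted p of 0.000559), and it was called whichever 1 of the 7 libraries was left out. Dynlt3, a dynein light chain, rose (806 ± 75.3 and 1312 ± 169; adjusted p = 0.00365), also whichever library was left out. Dynll1, a light chain shared with other complexes (8022 ± 722 and 11389 ± 2265; adjusted p = 0.0276), kept its call only when WT 4 or KO 1 was left out. Hook1, an adaptor (216 ± 12.7 and 331 ± 49.4; adjusted p = 0.0294), lost it without any 1 of the WT libraries or KO 3.

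Among 18 tested tubulins 1 rose and 1 fell, beside the same 3.09% and 3.63% of all tested genes (median 0.04). Tuba3a, an alpha-tubulin of the germ line, had 2937 ± 90.1 in WT and 1496 ± 404 in KO (log2 change -1.01, SE 0.15, and limma gave an adjusted p of 0.000817), called whichever library was left out. Other genes, Tuba3b among them, hold 19.9% of its 75-base stretches. Tuba3b itself had 74.7 to 140 in WT and 28.2, 0.909 and 2.19 in KO 1 to 3. It was not called (log2 change -4.22, limma adjusted p = 0.0622), but DESeq2 and the fit without KO 1 called it lower. Tuba1b, at 1258 ± 227 and 1901 ± 414 (0.59; adjusted p = 0.0272), shares 70.0% of its stretches, so that its count is uncertain, and it was not called when WT 1, WT 2, WT 3 or KO 2 was left out. Of 38 spindle assembly and midzone genes 1 rose and 1 fell, close to those shares of all genes (median -0.04). Ect2, the RhoA activator that binds centralspindlin, had 718 ± 93.0 and 1058 ± 145 (adjusted p = 0.0250 in limma), and was not called when WT 2, WT 3, KO 2 or KO 3 was left out. Haus1, of the augmin complex, had 569 ± 141 and 345 ± 103, with KO 3 inside the WT range (adjusted p = 0.0358 in limma), and was not called when any 1 of WT 1, WT 3, WT 4, KO 1 and KO 2 was left out. Once the granulosa marker mean entered as covariate, 0 genes of these 4 lists were called in either direction, also where the change stayed large. Mfn2 was not called in that fit either (limma adjusted p = 0.653), and its share of calls over all tested genes is not given. The log2 change of Dync1i1 was then -1.62 (adjusted p = 0.474) and that of Tuba3a -0.78 (adjusted p = 0.446). Without KO 2 and KO 3 both were still called lower, at -1.87 (adjusted p = 0.0187) and -0.69 (adjusted p = 0.0223). Of 14 genes of proliferating cells 0 rose and 1 fell (3.09% and 3.63% of all tested genes). Their summed level was 25299 to 28596 in WT and 24618 to 26618 in KO. These genes were abundant in all 7 libraries (Ccnb1 9105 to 11008), so their sum says nothing on a small number of dividing somatic cells.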

How the data were processed

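Per the submitters' processing notes, the authors used cutadapt, FastQC, STAR, DESeq and DESeq2 with build GRCm38 (mm10). Which program counted the reads, and how, is not stated there. The deposited signal values are read counts per gene, each library scaled by its own size factor: at least 99.96% of values in each library, and 100% of those of up to 1000 reads, lay within 0.05 of a whole number of reads. The kit marks no strand, so overlapping genes cannot be told apart. The 7 libraries held 6676076 to 8343915 reads, which limits genes of a few reads.

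KO and WT were compared with limma 3.58.1 (R 4.3.3, trend and robust variance) on log2(value + 1), over genes that reached 1 in 3 or more libraries. Fold changes on this scale understate the change of low genes. edgeR 4.0.16 and DESeq2 1.42.0 on recovered reads were alternatives. On counts simulated for this comparison with 200 changed genes among 18745 in the fit, limma recovered 68.0% at a true log2 change of 1 and 98.0% at 2. Of its 183 calls 17 were false. The changed genes were drawn only from better-expressed genes, and no log2 change below 1 was simulated. These shares therefore do not hold for genes of few reads or for smaller changes. Exon lengths and identifiers come from GENCODE M21, upstream sequences from RefSeq. Members and lists were chosen with earlier results of these data known. Every library value is given for members at an unadjusted p under 0.05, for the member highest per kilobase in WT in each role class, and for Kif11, Kifc1 and Kif5b. The others are given by range, except Kif14 and Kif3b, chosen after their values were seen. Of other lists, up to 4 called genes are named, and Tuba3b was added after its values were seen. Leaving out each library, other pseudocounts, filters, scalings and tests, a replicate block and a granulosa covariate were tried.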

Additional observations from a re-analysis of the deposited data

Results flagged for a closer look

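In each tested kinesin the 4 WT libraries were examined for a library far from the other 3. Chance alone flags about 1 in 20 groups, and 2 of 37 kinesins were found. Kif18a had 1038 normalised counts in WT 1, against 802 in the next library. Kifc5b had 9.35 in WT 3, against 1.08 in the next library, and shares 24.7% of its 75-base stretches with other genes. Groups of 3 were not examined.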

How the results depend on the processing

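The pseudocounts of 0.5 and 5, the filters, TMM scaling, edgeR and DESeq2 left 4 or 5 kinesins called higher and 0 lower. In place of 5 higher, 0 were called once the granulosa marker mean was a covariate and 0 without KO 2 and KO 3, where the variance of KO 1 is taken from the WT libraries. Leaving out 1 library gave 0 to 5 higher and 0 to 2 lower. The cause of these losses was not tested, and the shares of all tested genes called in these fits are not given. In the lists of partners, dynein, tubulins and spindle proteins, 8 genes were called higher and 3 lower. With the granulosa covariate these were 0 and 0, without KO 2 and KO 3 0 were higher, and DESeq2 called 5 lower. Without 1 library 2 to 8 were higher and 2 to 3 lower. Mfn2, the targeted gene, lost its call with the granulosa covariate (log2 fold change -1.59, adjusted p = 0.653) and without KO 2 and KO 3 (-1.77, 0.131).

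The same replicate numbers did not pair the libraries: same-numbered deviations correlated at -0.12, 0.0256 and 0.0221. With the number as a block, over WT 1 to 3 and KO 1 to 3, the kinesins called higher were 2, Kif15 and Kif21a.

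None of the genes whose value changed sign was called over all 7 libraries. With the granulosa covariate the log2 changes were Kif1bp 0.027, Kif1c 0.24, Kif20b -0.037, Kif21b 0.030, Kif22 0.038, Kif26a 0.011, Kif28 0.79, Kifc2 -0.059, Kifc3 0.55, Kifc5b -0.19, Trak1 0.16 and Rhot1 0.034. Without KO 2 and KO 3 they were Kif1a -0.089, Kif1bp 0.011, Kif20b -0.020, Kif28 0.10, Kifc3 0.31, Trak1 0.13 and Rhot1 0.075. Kifc5b was -0.19 in edgeR and -0.18 in DESeq2, and Rhot2 -0.015 and -0.017, and -0.10 with the block. Leaving out 1 library at a time gave Kif17 -0.017 to 0.25, Kif1a -0.56 to 0.79, Kif28 -0.40 to 0.17, Kif5b -0.22 to 0.062, Kifc3 -0.29 to 0.29 and Rhot2 -0.11 to 0.16.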
